A study of Mus musculus with 2 samples.

Results

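The hedgehog genes described here are the 3 ligands Ihh, Shh and Dhh, the receptors and membrane proteins Ptch1, Smo and Hhip, and the 3 transcription factors Gli1, Gli2 and Gli3. They were chosen by name and matched by gene identifier, which found all 9 among the 43346 genes of the tables. Transcripts of all 9 were counted in limb tissue, and their levels ran from 0.300 ± 0.0283 TPM for Shh to 104 ± 22.2 TPM for Gli1 (mean ± SD, n = 2). TPM corrects read numbers for library size and transcript length, so it can be set side by side between genes.

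The RNA came from limbs of C57BL/6J mouse embryos at 14.5 days, with no mutation, transgene or treatment named in the labels. Male and female littermates were pooled for each library, the 2 libraries are labelled biological replicates 1 and 2, and they form the only group. Both carry 1 donor identifier, and neither the number of litters behind the 2 pools nor the choice of forelimb or hindlimb is given, so intervals between samples measure only the spread of these 2 libraries, which may be technical. Each was a strand-specific, paired-end library of polyadenylated RNA. The gene rows summed to 110172150 and 103363120 counts in replicates 1 and 2, and the ERCC spike-in RNAs took 2.39% and 2.36% of all counts. All 10 genes of a list of limb mesenchyme and limb identity factors were at 1 TPM or more in both libraries, led by Twist1 at 216.07 and 279.23, Prrx2 at 146.78 and 219.06, and Prrx1 at 101.42 and 100.55 TPM in replicates 1 and 2.

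Hedgehog proteins are secreted, lipid-modified signals. Without them Patched receptors keep the membrane protein Smoothened inactive and Gli2 and Gli3 are processed into repressors; ligand binding to Patched frees Smoothened, which acts at the primary cilium to let Gli proteins activate transcription. Gli1, Ptch1 and Hhip are themselves target genes of the pathway. In the limb Shh from the posterior margin of the early bud patterns the digits, Ihh from maturing chondrocytes paces growth of the cartilage and bone formation around it, and Dhh is a product of Schwann cells that acts on the sheath of peripheral nerves.

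Among the ligands, Ihh, the signal of prehypertrophic chondrocytes, made up nearly all of the transcript total. Ihh (ENSMUSG00000006538.10, GRCm38 chromosome 1, 74945315 to 74951672, minus strand) was at 25.43 TPM in replicate 1 and 33.67 TPM in replicate 2, from 3860 and 4884 counts. Replicate 2 was the higher library, and the TPM intervals that the authors' program gave for each library did not overlap. These intervals cover estimation from the reads and not animals. They did not overlap for 60.3% of the 15055 genes whose mean reached 1 TPM. Dhh (ENSMUSG00000023000.4, chromosome 15, 98891152 to 98898540, minus strand) was at 2.14 and 1.96 TPM in replicates 1 and 2, from 347 and 293 counts. Replicate 1 was slightly higher, and the intervals overlapped. Shh (ENSMUSG00000002633.3, chromosome 5, 28456815 to 28467256, minus strand) was at 0.28 and 0.32 TPM, from 53 counts in replicate 1 and 55 in replicate 2. Exact 95% Poisson intervals, which cover counting error only, were 39.7 to 69.3 and 41.4 to 71.6 counts for Shh, so the libraries did not differ beyond counting error.

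The TPM of the 3 ligands summed to 27.85 in replicate 1 and 35.95 in replicate 2. Ihh held 91.3% and 93.7% of that sum, Dhh 7.68% and 5.45%, and Shh 1.01% and 0.890%. The order of the ligands was the same in both libraries. By TPM, Ihh stood at 11.9 and 17.2 times the level of Dhh, and at 90.8 and 105.2 times that of Shh. In tissue RNA a lower level can come from fewer cells of a type or less RNA per cell, which cannot be told apart.

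**Figure D1:**
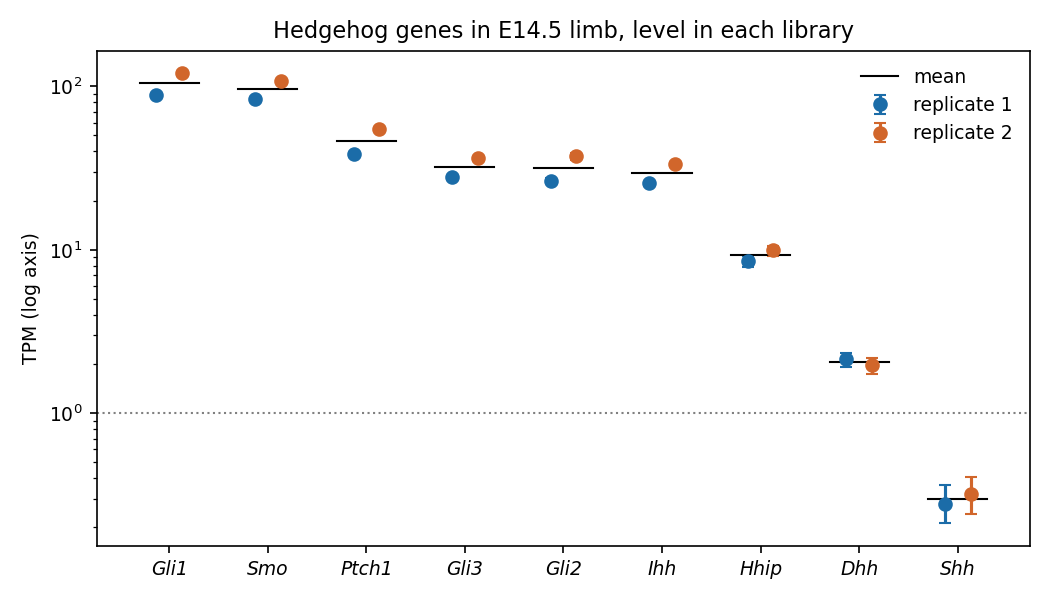
TPM of the 9 hedgehog genes (log axis) in replicate 1 (blue) and replicate 2 (orange), with the authors' interval for each library as error bars and the mean of both as a black line. Gli1 and Smo lay highest, Hhip, Dhh and Shh lowest, and Shh was the gene below the dotted line at 1 TPM.

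The receptor side was led by Smo, the membrane protein that passes the signal on. Smo (ENSMUSG00000001761.6, chromosome 6, 29735503 to 29761365, plus strand) was at 84.03 and 107.87 TPM in replicates 1 and 2, from 22563 and 26754 counts. Its level in both libraries was above that of Ptch1, the ligand-binding receptor. Ptch1 (ENSMUSG00000021466.7, chromosome 13, 63508328 to 63573598, minus strand) was at 38.41 TPM in replicate 1 and 54.59 TPM in replicate 2, from 18510 and 25346 counts. Smo thus stood at 2.19 and 1.98 times the TPM of Ptch1. Hhip, a membrane protein that binds hedgehog ligands and limits their signal (ENSMUSG00000064325.3, chromosome 8, 79965851 to 80058006, minus strand), was at 8.57 and 9.92 TPM, from 1612 and 1874 counts. Replicate 2 was the higher library for all of Smo, Ptch1 and Hhip, and only for Hhip did the intervals overlap. Among all genes whose mean reached 1 TPM, 60.3% had intervals that did not overlap.

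Of the transcription factors, Gli1, an activator whose own transcription is switched on by the pathway, was the most abundant. Gli1 (ENSMUSG00000025407.6, chromosome 10, 127329882 to 127341974, minus strand) was at 88.45 and 119.90 TPM in replicates 1 and 2, from 22995 and 28782 counts. Gli2, the main activator made before the signal arrives (ENSMUSG00000048402.10, chromosome 1, 118834132 to 119053619, minus strand), was at 26.28 and 37.25 TPM, from 12162 and 14751 counts. Gli3, the main source of repressor in the limb bud (ENSMUSG00000021318.11, chromosome 13, 15463235 to 15730026, plus strand), was at 27.74 and 36.16 TPM, from 15647 and 18496 counts. All 3 were higher in replicate 2 with intervals that did not overlap, as for 60.3% of all genes whose mean reached 1 TPM.

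The summed TPM of the Gli genes was 142.47 and 193.31, yet its division hardly moved between the libraries. Gli1 took 62.08% in replicate 1 and 62.02% in replicate 2, Gli2 18.4% and 19.3%, and Gli3 19.5% and 18.7%. Gli3 was above Gli2 in replicate 1 and below it in replicate 2, so their order was not fixed. Transcript levels do not show how much Gli3 or Gli2 protein was full-length or processed. Relative to the ligand, Gli1 stood at 3.48 and 3.56 times and Ptch1 at 1.51 and 1.62 times the TPM of Ihh. These ratios varied less between the libraries than the levels did.

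Counted at 1 TPM or more in both libraries, 8 of the 9 hedgehog genes were detected, all but Shh, against 62.8% of the 21474 protein-coding genes. Gli1 lay above 93.7% of protein-coding genes by mean TPM, Smo above 93.0%, Ptch1 above 83.7% and Ihh above 76.0%. Hhip, at 55.4%, was near the middle, and Dhh and Shh were below it at 40.9% and 29.8%.

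Differences between the 9 genes were set against the spread between libraries with a limma model of log2(TPM + 1) fitted to 15056 genes. A pair was called where the 95% interval of the difference excluded 0 and the sign was the same in both libraries. Of the 36 pairs, 30 were called, against 85.2% of all pairs of fitted genes, so the share for hedgehog genes was close to the background. By mean TPM the order was Gli1, Smo, Ptch1, Gli3, Gli2, Ihh, Hhip, Dhh and Shh, and 4 of its 8 neighbouring pairs were called. Smo was above Ptch1 by 1.04 (95% interval 0.46 to 1.62) on the log2 scale. Ihh was above Hhip by 1.57 (1.09 to 2.05), Hhip above Dhh by 1.75 (1.31 to 2.18), and Dhh above Shh by 1.23 (0.77 to 1.69). The added pseudocount of 1 shrinks the last of these differences: the mean TPM of Dhh was 6.83 times that of Shh. These intervals carry no p-value, because the genes were chosen with results of these data known.

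The 6 uncalled pairs lay at the top and in the middle of the order. Gli1 and Smo could not be separated, with a difference of 0.11 (-0.46 to 0.69). Gli3, Gli2 and Ihh could not be separated either: Gli3 exceeded Gli2 by 0.02 (-0.53 to 0.57) and Ihh by 0.11 (-0.41 to 0.64), and Gli2 exceeded Ihh by 0.09 (-0.46 to 0.65). Ptch1 lay above Gli3 by 0.52 (-0.04 to 1.08) and above Gli2 by 0.54 (-0.05 to 1.12), neither of which was called, and above Ihh by 0.63 (0.07 to 1.19), which was. Without length scaling, in CPM (counts scaled by TMM library sizes), the call of Gli1 and Smo over Ptch1 was lost; the leading Ptch1 transcript is 7002 bases long, against 3665 for Gli1 and 3779 for Smo. These wide intervals do not show that uncalled genes were equal. They treat the genes of a pair as independent, so a library shift shared by both genes counts as spread. Within replicates 1 and 2, Ptch1 lay above Gli3 by 0.46 and 0.58, and above Gli2 by 0.53 and 0.54.

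**Figure D2:**
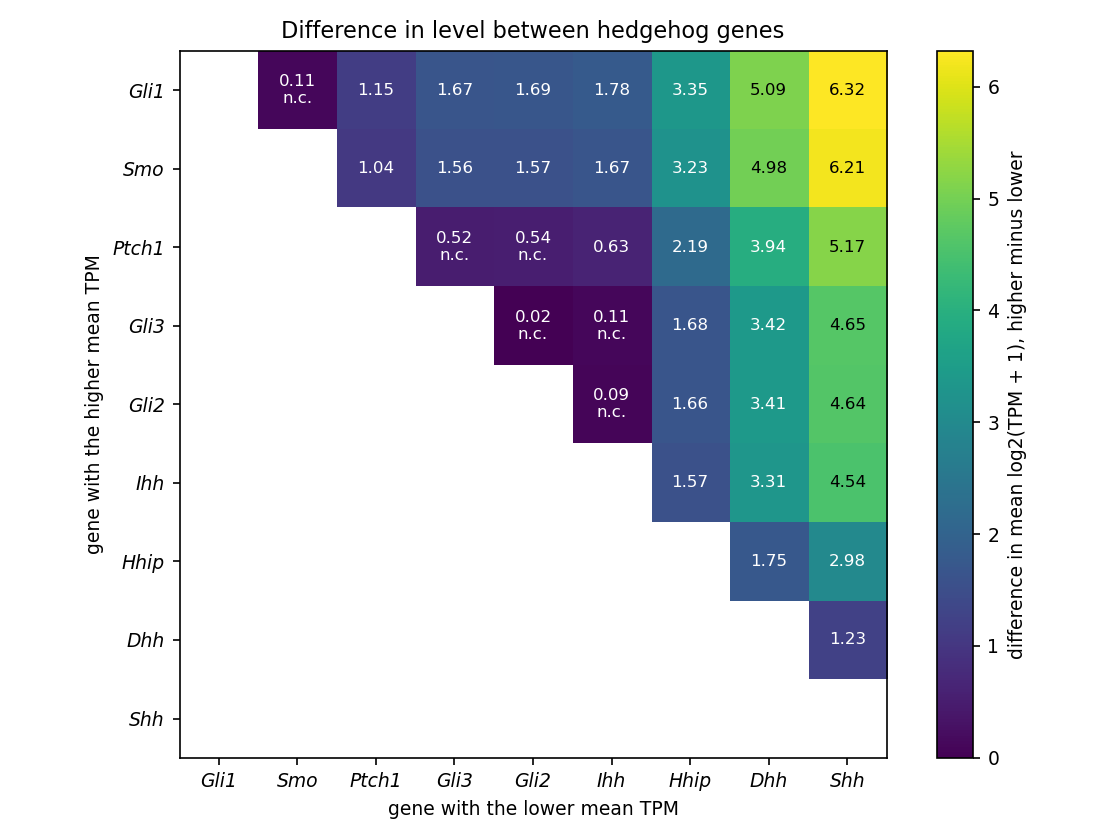
Difference in mean log2(TPM + 1) for each of the 36 pairs of hedgehog genes, the gene with the higher mean TPM in rows and the lower in columns. The 6 pairs marked n.c. were not called, and they lie between Gli1 and Smo and among Ptch1, Gli3, Gli2 and Ihh.

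Transcript tables divided the genes further. For Gli1, Smo, Dhh and Shh they held 1 transcript each, annotated as protein coding, and for the other 5 genes several, 29 in all. The leading transcript was protein coding for 8 of 9 genes in replicate 1 and for 9 of 9 in replicate 2, the exception being Hhip in replicate 1.

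Ihh was divided between the coding transcript Ihh-201 and Ihh-202, which is annotated as a retained intron. Ihh-201 was at 19.67 TPM in replicate 1 and 28.57 in replicate 2, or 77.3% and 84.8% of the gene. Ihh-202 was at 5.77 and 5.11 TPM, or 22.7% and 15.2%, from 512.93 and 413.09 estimated counts. The higher gene level in replicate 2 lay in the coding transcript, whose intervals did not overlap (18.8 to 20.2 and 27.4 to 29.1 TPM), while those of Ihh-202 did (5.01 to 6.44 and 4.44 to 5.79 TPM). The following pair of sequences shows where the transcripts part. Lower case is the shared end of exon 2 (GRCm38 chr1:74948304-74948333, minus strand), and capitals are the next bases of each, from exon 3 for Ihh-201 (chr1:74946718-74946747) and from the intron for Ihh-202 (chr1:74948274-74948303).
Ihh-201: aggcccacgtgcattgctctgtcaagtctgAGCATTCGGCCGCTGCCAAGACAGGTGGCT
Ihh-202: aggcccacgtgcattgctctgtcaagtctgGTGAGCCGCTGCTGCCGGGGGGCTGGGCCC
The intron reads on from exon 2 with GT, the usual first bases of an intron.

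Ptch1 was mostly assigned to Ptch1-202 and not to the longer coding transcript Ptch1-201. Ptch1-202 was at 30.63 and 47.42 TPM in replicates 1 and 2, or 79.7% and 86.9% of the gene. Ptch1-201 was at 3.82 and 4.90 TPM, or 9.94% and 8.97%. Ptch1-202 was the higher in both libraries, with no overlap of the intervals (29.7 to 31.1 against 3.34 to 4.30 TPM in replicate 1, and 46.0 to 47.8 against 4.32 to 5.47 TPM in replicate 2). Their annotated starts lie 1200 bases apart, Ptch1-202 downstream. The coding sequences hold 1434 codons in Ptch1-201 and 1297 in Ptch1-202, which begins translation in a later exon. The first 60 coding bases of each are shown to set the starts apart, with the start codon in capitals (GRCm38 minus strand, chr13:63565461-63565520 for Ptch1-201 and chr13:63548067-63548126 for Ptch1-202).
Ptch1-201: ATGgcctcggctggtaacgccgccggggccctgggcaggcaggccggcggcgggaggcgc
Ptch1-202: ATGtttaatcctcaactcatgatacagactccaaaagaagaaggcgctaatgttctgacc
The transcripts share 21 exons. They differ also at the other end, where 419 bases of the last exon of Ptch1-201 are spliced out of Ptch1-202, so the shares rest on both ends and not on the start alone.

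The RefSeq promoter window of Ptch1 belongs to the start of the less abundant Ptch1-201. Its 250 bases before that start (GRCm38.p6 chr13:63565736-63565985, minus strand) are printed with each CG pair in capitals, because this was the most CG-rich window of the set.
Ptch1 promoter: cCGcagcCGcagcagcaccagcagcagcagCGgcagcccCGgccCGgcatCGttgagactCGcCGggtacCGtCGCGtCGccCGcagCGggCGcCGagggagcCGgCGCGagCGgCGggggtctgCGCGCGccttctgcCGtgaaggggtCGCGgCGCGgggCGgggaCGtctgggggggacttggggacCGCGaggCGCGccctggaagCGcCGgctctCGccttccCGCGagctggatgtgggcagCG
Over 300 bases, 250 before and 50 after the start, the window held 47 CG pairs at 76.3% G and C. Windows were matched for 7 of the genes (Ihh, Dhh, Ptch1, Smo, Hhip, Gli2 and Gli3). The lowest of them, that of Dhh, held 12 CG pairs at 61.7% G and C, and the median over all 32851 RefSeq mouse windows was 7 CG pairs at 52.7%. The Gli binding motif GACCACCCA, searched on both strands (its reverse complement is TGGGTGGTC), was in 0 of these 7 windows and in 83 of 32851 windows, or 0.253%. The absence of these letters says nothing of binding elsewhere.

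Hhip divided almost evenly by TPM, though not by reads. The coding transcript Hhip-201 was at 4.2 and 5.46 TPM, or 49.0% and 55.1% of the gene, and the noncoding Hhip-202 at 4.37 and 4.46 TPM, or 51.0% and 44.9%. Hhip-201 led in replicate 2 only. In counts Hhip-202 had 14.4% and 11.3% of the reads of the gene, and its length of 909 bases against 4582 raises its share once length is divided out. Counting coding transcripts alone lowered Hhip from 9.24 ± 0.955 to 4.83 ± 0.891 TPM (SD, n = 2).

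The other Gli genes were mostly 1 coding transcript each. Gli3-201 held 92.2% and 89.2% of Gli3, and the retained-intron transcript Gli3-203 3.99% and 5.52%. Gli2-201 held 95.2% and 87.1% of Gli2. A short coding transcript, Gli2-209, was listed at 0 TPM in replicate 1 and at 3.31 TPM in replicate 2, where it took 8.87% of the gene from 137.53 of its 14751 counts. Much of the difference between libraries in the Gli2 share thus lay in 1 short transcript with few reads. A Ptch1 transcript of 305 bases, which is not in the newer annotation used for names, likewise took 6.50% and 2.63% of Ptch1 TPM from 20.03 and 8.05 counts.

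**Figure D3:**
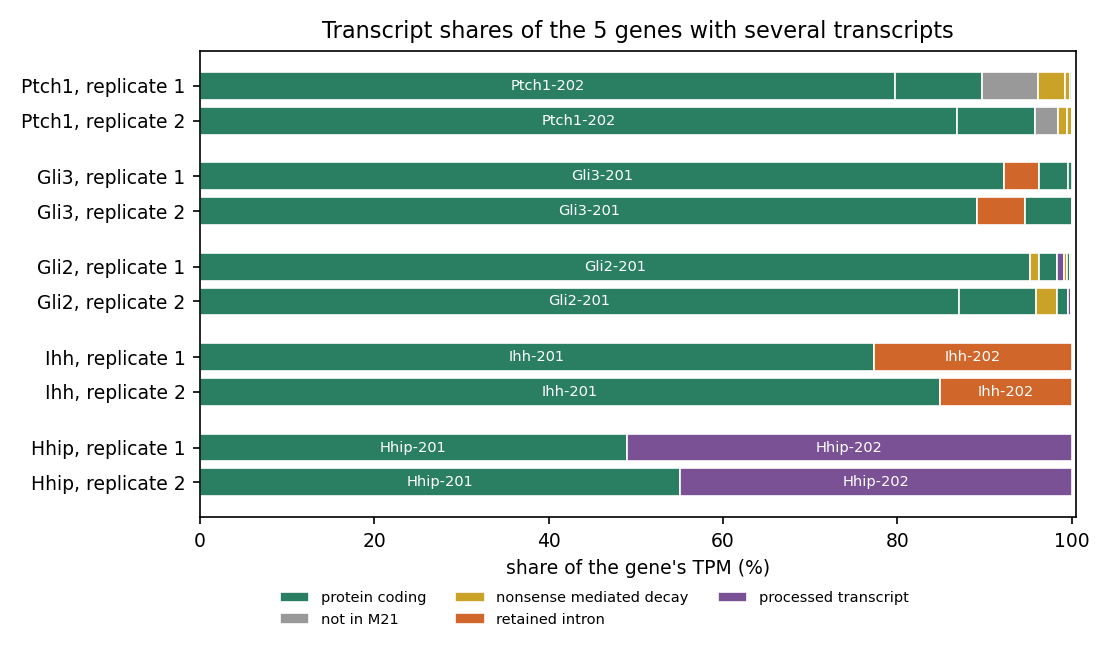
Share of each transcript in the TPM of its gene (%), for the 5 hedgehog genes with several transcripts, 1 bar per library, coloured by annotated type. The noncoding Hhip-202 held 51.0% and 44.9% of Hhip, the retained-intron Ihh-202 22.7% and 15.2% of Ihh, and Ptch1-202 79.7% and 86.9% of Ptch1.

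Several hedgehog genes overlap other genes, and the sources do not state whether counting used the strand of the reads. The antisense gene 9530036O11Rik, which overlaps Shh, had 1 count in each library, and the noncoding Gm26894 had 0 in both. Dhh overlaps Rhebl1 on the same strand, which was at 10.25 and 11.04 TPM, above the level of Dhh in both libraries. Gli1 overlaps the end of Arhgap9 on the opposite strand, at 4.07 and 4.10 TPM, far under Gli1 itself. All 9 genes had whole counts in both libraries within 0.005, that is with no read visibly shared out between genes.

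The libraries differed in the same direction for most of the set. All 9 genes but Dhh were higher in replicate 2. Among those whose mean reached 1 TPM this was 7 of 8, against 52.8% of the 15055 genes at that level. None of the 8 was past 1.5-fold, against 11.6% of those genes, and 6 of the 8 had intervals that did not overlap, against 60.3%. In TPM, Ptch1 differed most, by 0.51 on the log2 scale or 1.42-fold. It was followed by Gli2 at 0.50, Gli1 at 0.44, Ihh at 0.40, Gli3 at 0.38, Smo at 0.36 and Hhip at 0.21. Dhh was at -0.13. The order below Ptch1 depended on the scaling. With counts scaled by TMM, Ptch1 was at 0.57, Ihh at 0.45, Gli1 at 0.44, Gli2 at 0.39 and Hhip at 0.33. The median of the 8 in TPM was 0.39, against 0.02 for all genes, and 25% of all genes lay above 0.23. With 1 library on each side these are differences between those libraries, with no test.

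Other lists moved with the set in the same libraries. The limb mesenchyme list had a median log2 ratio of 0.47 with 9 of 10 genes higher in replicate 2, and the proliferating chondrocyte list 0.28 with 11 of 12. In the list of maturing cartilage, which includes Ihh, 9 of 12 were higher and the median was 0.38, and the other 3 genes were lower. These were the bone matrix genes Ibsp at 106.61 and 64.30 TPM and Spp1 at 85.14 and 63.95 TPM, and the collagenase gene Mmp13 at 2.97 and 1.37 TPM, with Spp1 and Mmp13 named after their values were seen. The epidermal list went the other way, with 2 of 7 higher and a median of -0.11. The summed TPM of the limb mesenchyme list was 725.37 and 961.99 in replicates 1 and 2, and that of the epidermal list 636.85 and 497.07. The part of tissue composition in the library difference was not tested.

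**Figure D4:**
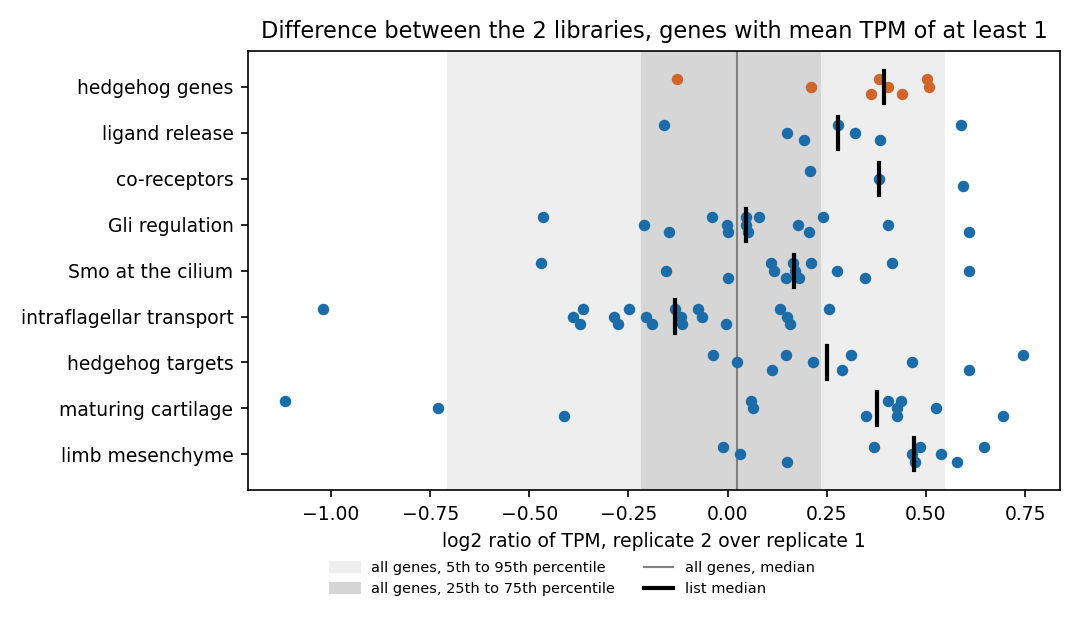
Log2 ratio of TPM in replicate 2 over replicate 1 for genes whose mean reached 1 TPM, hedgehog genes in orange and other lists in blue, with list medians as black bars and percentiles of all genes as grey bands. The hedgehog median was 0.39. Those of co-receptors and of maturing cartilage, which includes Ihh, were 0.38, that of limb mesenchyme 0.47 and that of intraflagellar transport -0.13.

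Nearly all listed genes of the rest of the pathway were detected in this tissue. Of 59 further genes in 5 lists, 58 were at 1 TPM or more in both libraries, against 62.8% of protein-coding genes. The median level was 21.9 TPM. Of all 59 genes, the undetected Lrp2 included, 36 were higher in replicate 2. The share was 52.8% among all genes whose mean reached 1 TPM, a level that Lrp2 did not reach. Past 1.5-fold were 5 of the 58, against 11.6% of all such genes. The median log2 ratio was 0.09, against 0.39 in the hedgehog set.

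All 7 genes of a list for ligand lipidation, release and transport were detected. What each listed gene does to the ligands in this tissue was not tested. Gpc3, a glypican that binds hedgehog proteins at the cell surface, was at 607.1 and 693.76 TPM. Disp1, which releases the lipid-modified ligand from the cell that makes it, was at 39.26 and 51.23 TPM, and Scube3, a secreted protein of the family that carries ligand, at 27.00 and 32.76 TPM. Each of these 3 genes was higher in replicate 2, as were 6 of the 7.

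The co-receptors Gas1, Boc and Cdon, which help Patched bind ligand, were above Ptch1 in TPM in both libraries. Gas1 was at 252.1 and 380.67 TPM, Boc at 76.53 and 99.77, and Cdon at 69.53 and 80.29. Lrp2, an endocytic receptor that binds Shh in the brain, was at 0.08 and 0.10 TPM and was the 1 undetected gene of the 59. The 3 detected co-receptors were higher in replicate 2, and Gas1 was past 1.5-fold.

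All 15 genes that regulate Gli proteins were detected, at a median of 38.1 TPM. They were led by Prkar1a, a regulatory subunit of protein kinase A, at 164 ± 3.82 TPM, and by the casein kinases Csnk1a1 at 141 ± 10.1 and Csnk1d at 119 ± 3.01 TPM (SD, n = 2). Protein kinase A and casein kinases phosphorylate Gli2 and Gli3 before they are processed. Sufu, which holds Gli proteins inactive, was at 25.30 and 29.91 TPM, below Gli2 and Gli3 in both libraries. In replicate 1 Gli2 was only slightly higher, at 26.28 TPM, and the differences of Sufu from the Gli genes were not tested. Sufu was chosen after its values were seen.

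The cilium lists were detected in full. All 14 genes for Smoothened signalling at the cilium were detected, led by Mgrn1, a ubiquitin ligase that acts on Smoothened, at 76.0 ± 12.9 TPM, the receptor kinase Grk2 at 72.4 ± 4.12 and Evc, a protein of the base of the cilium, at 61.9 ± 5.46 TPM (SD, n = 2). All 19 genes of intraflagellar transport, which builds the cilium, were detected at a median of 16.7 TPM. Ift20 led at 110.94 and 86.13 TPM, followed by Wdr34 at 36.57 and 43.69 and Ift27 at 36.70 and 35.12 TPM. Only 4 of the 19 were higher in replicate 2, and their median log2 ratio was -0.13, so these genes did not share the direction of the hedgehog set.

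Of 12 target genes outside the set, 10 were detected, against 62.8% of protein-coding genes. The cell cycle regulators Ccnd2 at 99.5 ± 10.5 and Ccnd1 at 92.6 ± 6.71 TPM and the transcription factor Osr2 at 74.6 ± 10.5 TPM (SD, n = 2) were highest. Foxf1, a target in gut mesenchyme, was at 0.45 and 0.82 TPM, and Foxl1 at 0.34 and 0.55 TPM. Of the 10 detected targets 9 were higher in replicate 2, against 52.8% of all genes whose mean reached 1 TPM. The median of these 10 was 0.25 on the log2 scale.

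**Figure D5:**
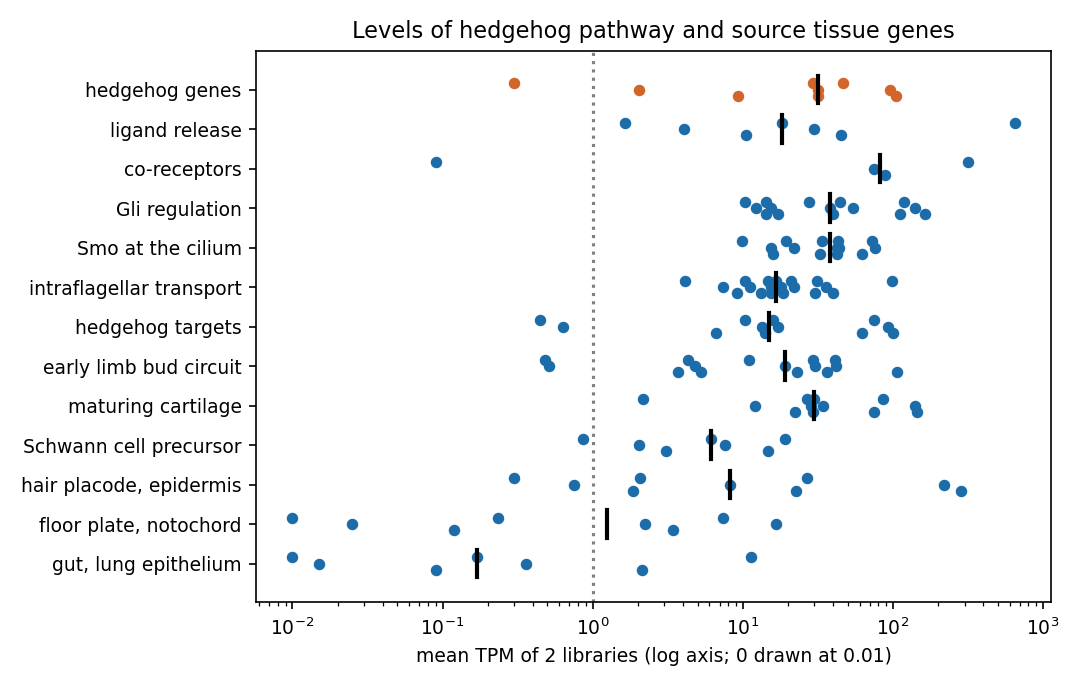
Mean TPM of both libraries (log axis, 0 drawn at 0.01) for the hedgehog genes (orange) and for lists of pathway genes and of tissues that make hedgehog ligands (blue), with list medians as black bars and 1 TPM as a dotted line. Of the 59 pathway genes 58 were detected, whereas 4 of 8 floor plate and notochord genes and 2 of 7 gut and lung genes were. The share over all protein-coding genes was 62.8%.

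Markers of the cells known to make each ligand were read beside the ligand levels. For Ihh, all 12 genes of maturing cartilage were detected, with Ihh as 1 of them, against 62.8% of protein-coding genes. The highest were Pth1r at 124.21 and 166.91 TPM and Col10a1 at 137.02 and 142.77 TPM. Col10a1 is the collagen of hypertrophic cartilage, and Pth1r the receptor of the parathyroid hormone-related signal that Ihh controls. Pthlh, which encodes that signal, was at 12.53 and 15.55 TPM. The list of proliferating chondrocytes was also complete, at a median of 113.8 TPM.

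For Dhh, 6 of 7 Schwann cell precursor genes were detected, with Dhh as 1 of them, against 62.8% of protein-coding genes. The highest were Sox10 at 16.35 and 21.72 TPM and Erbb3 at 15.14 and 14.27 TPM, and Cdh19 was under the limit at 0.93 and 0.80. In a list of other sites of Dhh, Sox8, which is not particular to the testis, was at 13.53 and 19.13 TPM. Which cells expressed Sox8 was not tested. The testis genes Dmrt1, Cyp17a1 and Gata4 were at or under 0.34 TPM in both libraries. Amh, a Sertoli cell hormone gene of the same list, was at 0.87 and 1.53 TPM, higher in replicate 2.

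For Shh the early limb bud partners were read at this 1 age, with no earlier sample to set them against. Of 15 genes of the early limb bud circuit 13 were detected, against 62.8% of protein-coding genes. The highest were Hoxd13 at 107 ± 22.4, Hoxd12 at 41.8 ± 8.19 and Hoxd11 at 41.5 ± 11.6 TPM (SD, n = 2). Fgf4, made by the apical ridge under the control of Shh, was at 0.47 and 0.55 TPM, and Fgf17 at 0.46 and 0.50. Hair placodes are another source of Shh at this age. Of 9 genes of hair placode and epidermis, Shh among them, 7 were detected, against 62.8% of protein-coding genes. They were led by Krt5, Krt14 and Lhx2, with Lhx2 at 23.00 and 30.30 TPM. The log2 ratio of Lhx2, replicate 2 over replicate 1, was 0.40, against a list median of -0.11. Which cells expressed Lhx2 was not tested. The placode genes Edar at 1.85 and 1.89 TPM and Dkk4 at 2.20 and 1.91 TPM, named after their values were seen, lay near the limit. Wnt10b of the same list lay further above it, at 8.48 and 7.84 TPM. Shh and Sox21, at 0.81 and 0.69 TPM, were the undetected genes.

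Genes of other Shh-producing tissues were low or mixed. In the list of floor plate and notochord, Ntn1 at 15.41 and 18.00 TPM and Spon1 at 7.52 and 7.31 TPM were highest, and both are also expressed outside these tissues. T, a notochord factor, was at 3.03 and 3.85 TPM and Foxa2 at 1.39 and 3.10 TPM, with Foxa2 chosen after its values were seen. Foxa1 and Nkx2-2 were at or under 0.17 TPM, Nkx6-1 reached 0.28 TPM and Noto was listed at 0. In the gut and lung list Lgr5 at 10.13 and 12.46 TPM and Elf3 at 2.33 and 1.91 TPM were detected, and Cdx2, Vil1, Sftpc, Nkx2-1 and Cldn18 were not. Which cells gave the Shh counts was not tested.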

How the data were processed

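Per the deposited README, the authors made the gene and transcript tables on assembly mm10 and annotation GENCODE M4; the program was not given in the sources used here. Per the file headers, the deposited tables hold expected counts, TPM, posterior mean TPM, FPKM, effective lengths, the bounds of a TPM interval (used as a signal range, with its level not stated) and transcript shares in percent. Deposited TPM includes spike-in, phiX and tRNA rows. Names, types and positions came from GENCODE M21 (GRCm38, the assembly of mm10), where 22 of 29 transcripts had the same length. The deposited models were shorter for Hhip-201 (4582 bases against 9074 in M21), Dhh-201 (2363 against 4242), Gli1-201 (3665 against 4057) and Shh-201 (2692 against 2847). TPM of these genes rests on the shorter models, while printed positions and overlaps are those of M21. Expected counts were rounded for TMM and DESeq2 scaling.

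The limma fit had an intercept only and a trended prior, over the named set plus all genes whose mean reached 1 TPM, and 5.37 moderated degrees of freedom. The 2 genes of a pair were taken as independent, and the fit was tested on simulated data. Genes were independent in the simulation too, so it did not cover a shift shared by genes. Poisson and binomial intervals cover counting error only. The genes, lists and tests were chosen with earlier results of these data known. Per list the 3 highest genes are named, with those under 1 TPM in both libraries where these number 5 or fewer. Each co-receptor is named too. This rule was not kept for the proliferating chondrocyte list, where no gene was named. Nor was it kept for the Schwann cell precursor list, where Gfra3, at 6.82 and 8.51 TPM in replicates 1 and 2, was left out. Promoters came from RefSeq GRCm38.p6. Protein sequences were not analysed here, and some list genes are not reported here. Alternatives were another pseudocount, filter, unit, scaling, posterior means, each library alone and, added after seeing the data, coding transcripts only. Tools were R 4.3.3, limma 3.58.1, edgeR 4.0.16, DESeq2 1.42.0 and Python 3.11.15.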

Additional observations from a re-analysis of the deposited data

How the results depend on the processing

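Rescaling TPM without spike-in, phiX, tRNA and mitochondrial rows multiplies every gene of a library by 1 factor, so all 9 means rose alike (Gli1 to 117.4 TPM); Hhip at 10.4, Dhh at 2.31 and Shh at 0.338 TPM moved past their SD, which is small, and coding transcripts alone gave Hhip 4.83 TPM. Of 36 pairs, 29 to 31 were called under the other settings. With no filter, Ptch1 over Ihh was lost. With a filter at a mean of 10 TPM, Dhh over Shh was lost and Ptch1 over Gli3 and Gli2 gained. In CPM, Gli1 and Smo over Ptch1 were lost, and Ptch1 over Gli2, Gli3 over Ihh and Gli2 over Ihh changed to called. With 1 library left out, a pair has no spread and was not tested. Under TMM, DESeq2, spike-in and posterior mean scaling, 8 of 9 genes were higher in replicate 2 and 0 past 1.5-fold. The size of some log2 ratios moved. With TMM and with DESeq2 scaling, Gli2 fell from 0.50 to 0.39, Hhip rose from 0.21 to 0.33 and Ptch1 from 0.51 to 0.57. Samples could not be paired because they form 1 group. The 2 genes of a pair were measured in the same libraries, but the intervals did not use that pairing. Depth limits Shh most, with 53 and 55 counts.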
